A study of Mus musculus with 6 samples.

Results

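Genes of coagulation, fibrinolysis and matrix adhesion were followed in RNA-seq of mouse T cells cocultured with myeloid cells. They were taken by gene symbol from the deposited table, in which all 9 members, Thbs1, Fn1, F13a1, F10, F7, F3, Plau, Plaur and Serpinb2, were found among 54532 genes. In the control group, the T cells were cocultured with cells that had not received DB2313, and in the DB2313 group with cells that had received this Spi1 inhibitor, with 3 samples in each group. Spi1, also called PU.1, is a transcription factor of myeloid cells. GEO's labels call the partner cells DC cells, whereas the methods of the study describe bead-activated (anti-CD3/CD28) splenic CD8T cells and peritoneal macrophages elicited with thioglycolate. In those methods the macrophages first received IFN-γ at 10 ng/mL over 12 hr, DB2313 was used at 14 nM, and the T cells were collected after 24 hr of coculture. Which mice gave these cells, and whether animals were pooled or the 3 samples came from separate cultures, are not given in the sources used here, so p-values measure the spread between these samples, which may be technical.

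Blood clotting starts when F7, a serine protease of plasma, meets its membrane receptor F3 (tissue factor) and activates F10, which in turn helps to turn prothrombin into thrombin. Thrombin makes fibrin, F13a1 crosslinks the fibrin, and plasmin dissolves it again once the urokinase Plau, held at the cell surface by its receptor Plaur, has activated plasminogen. Monocytes and macrophages are known to make several of these proteins outside the liver, together with the adhesive matrix proteins Thbs1 and Fn1.

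Library totals ranged from 16611975 to 18596217 counts, and the common biological coefficient of variation between replicates was 4.67%. Of all genes, 14883 passed the filter on low counts and were tested with edgeR's quasi-likelihood test, and a gene was taken to have risen or fallen at a Benjamini-Hochberg adjusted p below 0.05. Levels are given as CPM, read counts relative to the TMM-scaled library size. All 20 T cell markers rose (median log2 fold change 0.59) and took 0.329% to 0.333% of the counts in the control libraries and 0.524% to 0.536% in the DB2313 libraries. Of 20 macrophage markers, 18 fell and 2 (Trem2 and Marco) rose, with a median of -1.11, and their share went from between 1.28% and 1.31% to between 0.567% and 0.584%. RNA of both cell types was therefore counted in each library, the part of this shift in the results on the 9 genes was not tested, and fewer cells of a type and less RNA per cell cannot be told apart in bulk samples.

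Among the 9 genes, 7 fell in the DB2313 group, 0 rose, F13a1 missed the threshold and F3 was counted too rarely to be tested. Over all tested genes, 24.6% (3667) fell and 20.8% (3096) rose at the same threshold. This split depended on the scaling, with 2852 lower and 4931 higher genes by library size, 3102 and 4319 by upper quartile, and 11468 and 178 by T cell markers, while the same 7 members were lower in each and F13a1 was called only with the T cell markers. With a log2 fold change below -1 as well, 5 of the 9 genes were called (Thbs1, F10, Fn1, Serpinb2 and Plaur), against 5.30% of all tested genes, and 1.37% of all genes were called in the other direction. This count was 4 with library size and with upper quartile scaling, where Plaur was at -0.94 and -0.97, and 6 with T cell marker scaling, which added F7. Without DB2313 replicate 2 it was 3, as Plaur (-0.9999) and Serpinb2 (-0.98) missed the fold threshold. The 8 tested members had a median change of -1.08 on the log2 scale, beside 0.02 for all tested genes. In each of these 8, every DB2313 library lay below every control library, as was the case for 27.5% of all tested genes.

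**Figure D1:**
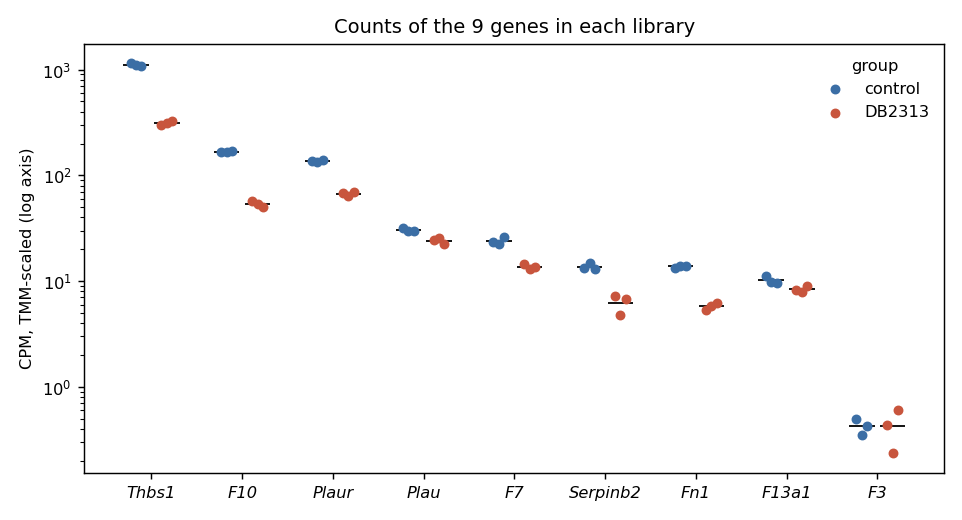
Level of each gene as TMM-scaled CPM on a log axis, with a point for each of the 3 control and 3 DB2313 libraries and a line at the group mean. The groups are separate in 8 genes, from Thbs1 at the top to F13a1, and overlap in F3, which stays below 1 CPM in each library.

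Promoter sequences from RefSeq (GRCm38.p6) were held for 6 of the 9 genes. The 250 bases before the start site are shown for 4 of them, because DB2313 targets Spi1 and because F7 and F10 are neighbours on chromosome 8 that fell to a different extent. Capitals mark GAGGAA, the core letters of a Spi1 site, read on either strand (TTCCTC on the printed strand), and TGANTCA, the letters of an AP-1 site, which read the same on both strands. The sequences run 5′ to 3′ on the plus strand.

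F7, chr8:13025784-13026033: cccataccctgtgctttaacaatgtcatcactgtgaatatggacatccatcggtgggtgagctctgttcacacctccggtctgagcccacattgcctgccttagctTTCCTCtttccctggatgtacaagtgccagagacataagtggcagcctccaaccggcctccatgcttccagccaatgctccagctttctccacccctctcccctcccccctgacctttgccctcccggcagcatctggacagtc
F10, chr8:13037058-13037307: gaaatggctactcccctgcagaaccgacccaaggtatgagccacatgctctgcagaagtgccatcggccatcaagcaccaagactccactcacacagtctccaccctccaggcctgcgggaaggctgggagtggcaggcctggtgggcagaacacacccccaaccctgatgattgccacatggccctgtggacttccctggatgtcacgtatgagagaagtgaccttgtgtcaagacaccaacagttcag
Plaur, chr7:24462233-24462482: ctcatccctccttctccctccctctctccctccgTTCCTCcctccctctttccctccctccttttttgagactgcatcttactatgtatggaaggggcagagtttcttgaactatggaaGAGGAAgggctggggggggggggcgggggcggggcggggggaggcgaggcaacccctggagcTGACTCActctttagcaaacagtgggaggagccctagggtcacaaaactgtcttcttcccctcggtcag
Serpinb2, chr1:107511173-107511422: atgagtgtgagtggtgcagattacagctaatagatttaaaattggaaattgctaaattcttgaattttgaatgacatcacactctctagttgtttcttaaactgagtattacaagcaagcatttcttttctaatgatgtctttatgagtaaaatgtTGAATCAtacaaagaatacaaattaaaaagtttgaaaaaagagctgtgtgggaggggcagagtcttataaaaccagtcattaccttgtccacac

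GAGGAA occurred at -216 and -131 from the start site of Plaur and at -144 from that of F7, and was not found in these windows of F10 or Serpinb2. TGANTCA occurred at -69 in Plaur and at -94 in the window shown for Serpinb2. A second window of Serpinb2, with another start site and not shown, had it at -181. F13a1, whose sequence is not shown, had GAGGAA at -66 in 1 of its 2 windows, and F3 had TGANTCA at -146 and -135. GAGGAA was present in 23.3% and TGANTCA in 6.75% of 32851 promoter windows of the same length, and no overlap of the motifs occurred in the windows shown. F10, the clotting factor that fell most, held neither motif in its window, and Plaur held both.

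F10 (ENSMUSG00000031444, plus strand of chromosome 8 of GRCm38 from 13037308 to 13056676) encodes the zymogen of the protease that converts prothrombin. The control libraries held 3001, 2869 and 2780 counts of it and the DB2313 libraries 1055, 919 and 923. The control libraries lay close together and well above the DB2313 libraries. On the CPM scale its level fell from 167.7 ± 1.87 to 53.7 ± 3.48 (SD, n = 3 each), a log2 fold change of -1.64 (standard error 0.05, adjusted p = 8.86e-19 from edgeR).

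F7 (ENSMUSG00000031443, plus strand of chromosome 8 from 13026034 to 13035809) encodes the protease that F3 binds at the start of clotting. Its counts were 424, 385 and 425 in the control group and 267, 223 and 251 in the DB2313 group, again without overlap. Its level fell from 23.95 ± 1.82 to 13.7 ± 0.696 CPM (SD, n = 3 each), with a log2 fold change of -0.80 (standard error 0.09, adjusted p = 1.28e-07 from edgeR). F7 ends 1498 bases before F10 begins on the same strand, and F10 had the larger fall. The count of F7 per kb of gene length was 0.208, 0.197 and 0.225 of that of F10 in the control libraries and 0.372, 0.357 and 0.400 in the DB2313 libraries. This ratio is taken inside each library and does not depend on the scaling, and it was higher in every DB2313 library.

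The other genes of that stretch of chromosome 8 differed. Mcf2l, a guanine nucleotide exchange factor gene that ends before F7, fell as well, from 23.6 to 10.3 mean CPM, with a log2 fold change of -1.20 (standard error 0.11). Proz, the gene of the clotting cofactor protein Z beyond F10, was at 0.03 on the log2 scale (standard error 0.18), with 5.18 and 5.28 mean CPM. Pcid2 was at 0.06 (standard error 0.07) and Cul4a at -0.12 (standard error 0.05), and none of these 3 passed the threshold. Over all 9 members, 18 other tested genes lay within 100 kb, of which Mcf2l, Irgc1, Vcl and Serpinb10 fell, Kcnn4 rose, and 13 passed in neither direction, with log2 fold changes between -0.44 and 0.12. Of all tested genes, 24.6% fell and 20.8% rose. Irgc1, at 2.29 and 1.25 mean CPM, did not pass with DESeq2 (-0.87) or in 4 of the 6 fits without 1 sample: without control replicate 2 (-0.85), control replicate 3 (-0.79), DB2313 replicate 2 (-0.67) and DB2313 replicate 3 (-0.80). Kcnn4 was at -0.16 with T cell marker scaling.

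F3 (ENSMUSG00000028128, plus strand of chromosome 3 from 121723537 to 121735048), the tissue factor gene, was nearly absent. Its counts were 9, 6 and 7 in the control group and 8, 4 and 11 in the DB2313 group, so the groups overlapped and the gene did not pass the filter. Fitted without the filter, its log2 fold change was -0.0045 with a standard error of 0.65, and a difference could not be detected at this depth. Transcripts of F7 and F10 were thus counted beside very few of the receptor through which F7 acts.

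F13a1 (ENSMUSG00000039109, minus strand of chromosome 13 from 36867178 to 37050244) encodes the catalytic chain of the transglutaminase that crosslinks fibrin. Its counts were 203, 168 and 156 in the control group and 151, 135 and 165 in the DB2313 group. After scaling, the lowest control library (9.53 CPM) still lay above the highest DB2313 library (8.97 CPM), but by little. The means were 10.2 ± 0.931 and 8.35 ± 0.550 CPM (SD, n = 3 each), with a log2 fold change of -0.29 (standard error 0.12) and an adjusted p of 0.065 from edgeR, which did not pass. Antisense genes overlap part of F13a1, and 2 counts fell on them in all 6 libraries. How many reads of F13a1 these overlaps affected is not known, since the strandedness is not given.

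Plaur (ENSMUSG00000046223, plus strand of chromosome 7 from 24462484 to 24475968), the membrane-anchored receptor of urokinase, was the most abundant fibrinolysis gene of the 9. Its counts were 2463, 2314 and 2308 in the control group and 1259, 1087 and 1271 in the DB2313 group, and the spread within each group was small beside the gap. Its level fell from 137.4 ± 3.26 to 67.0 ± 2.87 CPM (SD, n = 3 each), a log2 fold change of -1.04 (standard error 0.04, adjusted p = 2.54e-15 from edgeR).

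Plau (ENSMUSG00000021822, plus strand of chromosome 14 from 20836660 to 20843385), which encodes the urokinase itself, changed little. Its counts were 577, 517 and 489 in the control libraries and 451, 433 and 409 in the DB2313 libraries. These corresponded to 30.6 ± 1.16 and 24.01 ± 1.61 CPM (SD, n = 3 each), and the log2 fold change of -0.35 (standard error 0.08, adjusted p = 5.71e-04 from edgeR) passed the threshold. The urokinase gene thus kept more of its control level than the receptor gene. Per kb of gene length, the Plau count was 0.259, 0.247 and 0.234 of the Plaur count in the control libraries and 0.396, 0.440 and 0.356 in the DB2313 libraries, with no overlap.

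Serpinb2 (ENSMUSG00000062345, plus strand of chromosome 1 from 107511423 to 107535478) encodes an inhibitor of urokinase that macrophages make. Its counts were 242, 256 and 211 in the control group and 133, 82 and 124 in the DB2313 group, with the second DB2313 library below the other two. Its level fell from 13.7 ± 1.04 to 6.25 ± 1.27 CPM (SD, n = 3 each), a log2 fold change of -1.13 (standard error 0.14, adjusted p = 3.35e-07 from edgeR). The inhibitor fell by more than the enzyme, since the Serpinb2 count per kb was 0.423, 0.499 and 0.435 of the Plau count in the control libraries and 0.297, 0.191 and 0.306 in the DB2313 libraries. Serpinb10, a related serpin gene on the same strand, shares 6476 bases of its span with Serpinb2, so reads there could be divided between them, and it fell too, with a log2 fold change of -0.75 (standard error 0.14). Serpinb8, the next gene of the cluster, was at -0.18 (standard error 0.15) and did not pass, with a range of -0.33 (without DB2313 replicate 2) to -0.02 (without DB2313 replicate 1).

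Thbs1 (ENSMUSG00000040152, plus strand of chromosome 2 from 118111876 to 118127133) encodes thrombospondin, a secreted glycoprotein that binds matrix proteins, Cd36 and Cd47. It was by far the most abundant of the 9 genes, with 20630, 19000 and 17774 counts in the control libraries and 5478, 5365 and 6011 in the DB2313 libraries. Among the tested genes it ranked at place 81 by control CPM and at place 229 by the size of its fall. Its level fell from 1112 ± 29.3 to 312.6 ± 15.1 CPM (SD, n = 3 each), or to 28.1% of the control mean, with a log2 fold change of -1.83 (standard error 0.04, adjusted p = 2.34e-21 from edgeR).

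Fn1 (ENSMUSG00000026193, minus strand of chromosome 1 from 71585520 to 71653200) encodes fibronectin, which links integrins to the matrix. Its counts were 242, 240 and 228 in the control group and 99, 100 and 115 in the DB2313 group, and both groups were tight. Its level fell from 13.8 ± 0.309 to 5.82 ± 0.446 CPM (SD, n = 3 each), a log2 fold change of -1.24 (standard error 0.12, adjusted p = 1.02e-08 from edgeR). Thbs1 fell by more than Fn1, since its count per kb was 164, 152 and 150 times that of Fn1 in the control libraries and 107, 103 and 101 times in the DB2313 libraries.

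**Figure D2:**
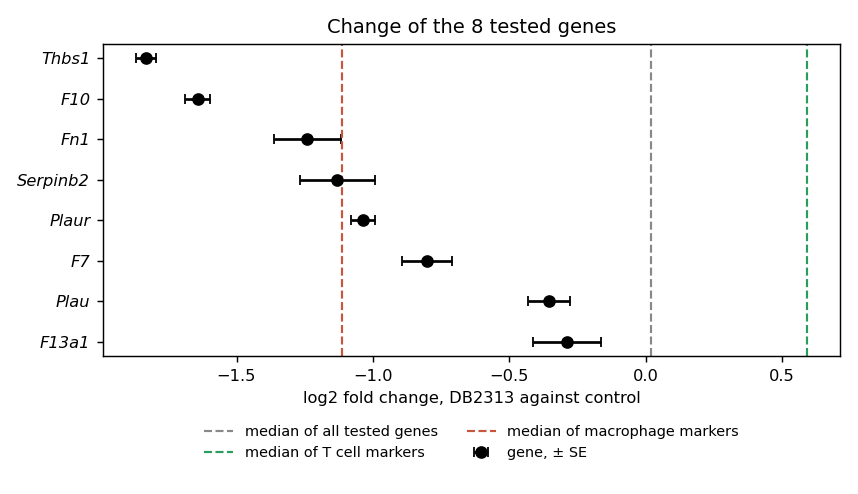
Log2 fold change between the DB2313 and control groups (x axis) of the 8 tested genes, as points with standard errors, beside dashed lines at the medians of all tested genes, of 20 T cell markers and of 20 macrophage markers. The genes spread from -1.83 in Thbs1 to -0.29 in F13a1, on both sides of the macrophage marker median of -1.11.

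Divided by gene length as the deposited table gives it, the order of the levels in the control group was Thbs1 at 183.0 ± 4.82, F10 at 61.4 ± 0.685 and Plaur at 52.5 ± 1.25 CPM per kb (SD, n = 3 each). Plau (12.9 ± 0.490) and F7 (12.9 ± 0.981) followed and did not differ beyond their spread. Below them were Serpinb2 at 5.85 ± 0.443, F13a1 at 1.51 ± 0.138, Fn1 at 1.18 ± 0.026 and F3 at 0.168 ± 0.030 CPM per kb. In the DB2313 group Plaur (25.6 ± 1.10) stood above F10 (19.7 ± 1.27), and the other genes kept their places.

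Ratios between members were followed in 6 pairs, and in each pair the control and DB2313 libraries did not overlap. The log2 change of the ratio was 0.84 for F7 to F10, 1.36 for F13a1 to F10, 0.68 for Plau to Plaur, -0.80 for Serpinb2 to Plau and -0.59 for Thbs1 to Fn1. The ratio of F3 to F10 changed by 1.55, but rests on at most 11 counts of F3 in a library. Each pair had p = 0.1 in a two-sided exact permutation test, also after Benjamini-Hochberg adjustment over the 6 pairs, which is the smallest p that 3 against 3 samples allow, so none could pass.

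**Figure D3:**
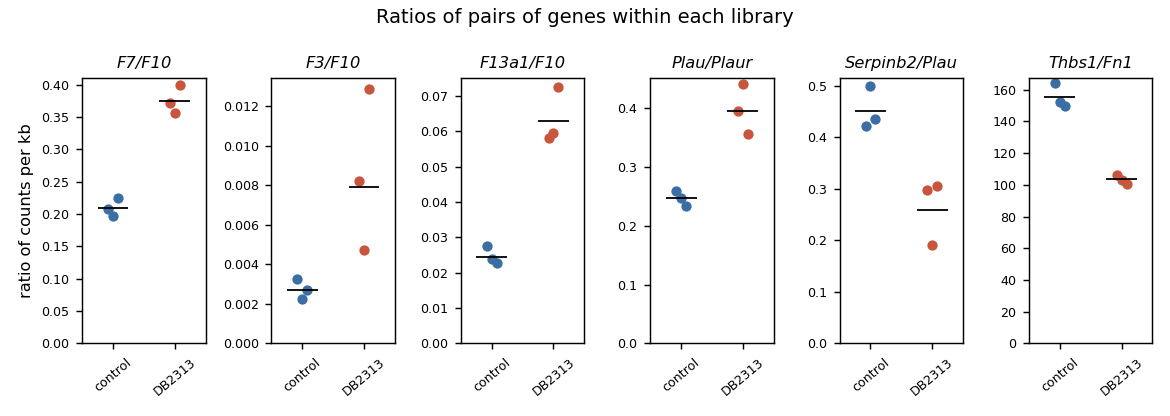
Ratio of the counts per kb of 2 genes in each library (y axis, from 0, a separate scale in each panel) for the 6 pairs, with a line at the geometric mean of each group. The ratio is higher in the DB2313 libraries for F7 to F10, F3 to F10, F13a1 to F10 and Plau to Plaur, and lower for Serpinb2 to Plau and Thbs1 to Fn1.

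The members were also set against the summed counts of the 20 macrophage markers in the same library, of which Lyz2, at 7702 and 2084 mean CPM, was the largest part, and against the sum of the other 19 markers. Of those 19, Ctsd was the most abundant and fell little, at 1559 and 1395 mean CPM (log2 fold change -0.16). Sums that also left out Ctsd were not taken, so the directions given without Lyz2 hold for this set of 19 only. Per 1000 marker counts, Thbs1 had 86.3, 83.4 and 79.7 counts in the control libraries and 53.0, 55.3 and 59.8 in the DB2313 libraries, and F10 had 12.5 to 12.6 and 9.18 to 10.2. These 2 genes were lower relative to the markers, and also without Lyz2 (188.2 to 204.6 against 85.0 to 95.5 for Thbs1, 29.4 to 29.8 against 14.7 to 16.4 for F10). Fn1 (1.01 to 1.05 against 0.959 to 1.14) and Serpinb2 (0.947 to 1.12 against 0.846 to 1.29) overlapped between the groups with all 20 markers. Without Lyz2 both were lower in every DB2313 library, Fn1 at 2.40 to 2.46 against 1.54 to 1.83 and Serpinb2 at 2.24 to 2.63 against 1.34 to 2.06. F13a1 (0.700 to 0.849 against 1.39 to 1.64) and Plau (2.19 to 2.41 against 4.07 to 4.47) were higher relative to the 20 markers in every DB2313 library, and also without Lyz2 (1.65 to 2.01 against 2.21 to 2.62 and 5.18 to 5.72 against 6.50 to 7.10). The direction of F7 and Plaur differed between the sums with and without Lyz2. F7 was higher with it (1.69 to 1.91 against 2.30 to 2.59) and overlapped without it (3.95 to 4.50 against 3.66 to 4.14), and Plaur was higher with it (10.2 to 10.4 against 11.2 to 12.6) and lower without it (23.8 to 24.4 against 17.8 to 20.2). F3, on its few counts, was higher with Lyz2 (0.026 to 0.038 against 0.041 to 0.109) and overlapped without it. Relative to the summed T cell markers, each of the 8 tested members was lower in every DB2313 library, and F3 overlapped. Most genes were lower on that scale. With libraries scaled to the T cell markers, 11468 genes were called lower and 178 higher, and the median of all genes was -0.56.

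**Figure D4:**
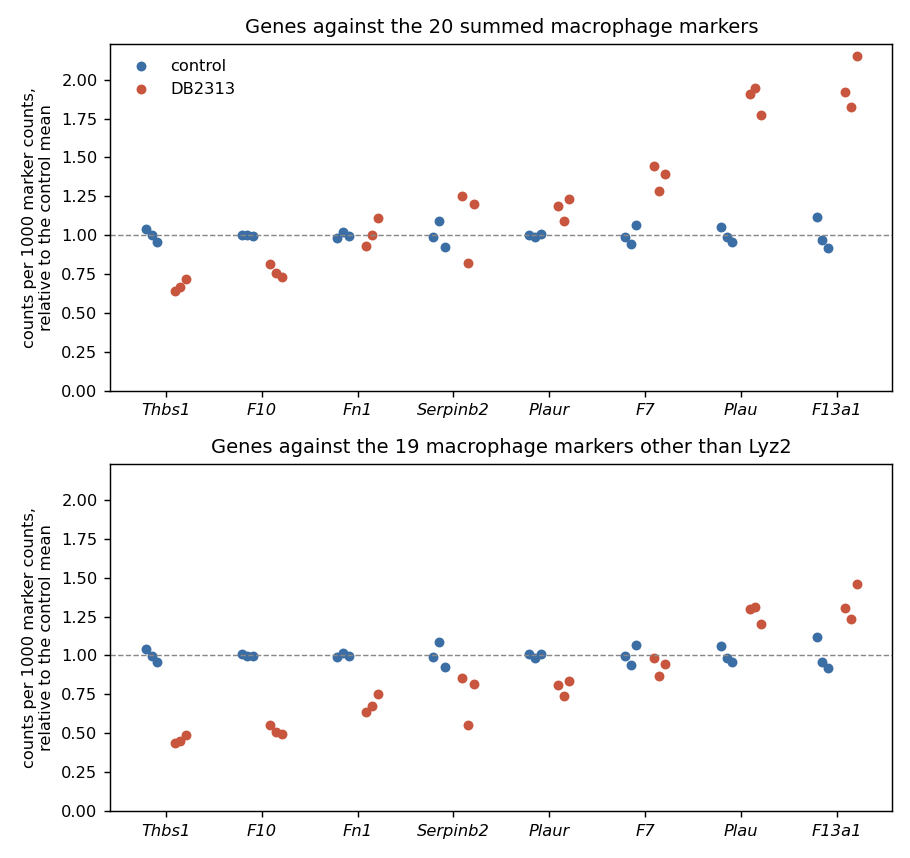
Counts of each of the 8 tested genes per 1000 counts of the 20 macrophage markers (top) or of the 19 other than Lyz2 (bottom), divided by the control mean (y axis, from 0), with a point for each library. In the DB2313 libraries Thbs1 and F10 lie below the dashed line at 1 and Plau and F13a1 above it in both panels, while Fn1, Serpinb2, Plaur and F7 shift from around or above it in the top panel to below it in the bottom panel, where F7 still overlaps the control libraries.

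Markers of other cells known to hold these proteins were counted in the same libraries. Platelets store Thbs1, Fn1 and F13a1, and of 11 platelet and megakaryocyte markers 10 were tested, 8 rose and 0 fell, and their share was 0.0274% to 0.0282% in the control libraries and 0.0460% to 0.0496% in the DB2313 libraries. Pf4, the leading one, rose from 102.8 to 209.0 mean CPM, and Gp1bb was at 0 in each library. Fibroblast markers took at most 0.000806% of the counts, and 3 of 7 were tested without passing. Mesothelial markers took at most 8.93e-05%, with none of 7 tested and Upk3b and Msln at 0. Of 7 endothelial markers 4 were tested and 3 rose, with shares of 0.0116% to 0.0118% and 0.0141% to 0.0143%, and Cldn5 was at 0. Pecam1, at 114.8 and 127.0 mean CPM, made up most of this share. Kdr was at 4.46 and 6.66 mean CPM and Cdh5 at 0.195 and 1.07.

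Myeloid lists other than the macrophage markers moved in both directions. All 10 neutrophil markers fell, with shares of 0.195% to 0.196% and 0.0726% to 0.0745%. Of 8 monocyte markers 4 fell and 3 rose, with shares of 0.168% to 0.173% and 0.182% to 0.188%. Of 12 dendritic cell markers 11 were tested, 9 fell and 1 rose, with shares of 0.402% to 0.408% and 0.290% to 0.293%, and Siglech was at 0. Of 10 markers of resident peritoneal macrophages, 5 were tested and 3 rose, with shares of 0.00461% to 0.00503% and 0.00674% to 0.00716%, while Gata6 and Timd4 stayed below 0.1 mean CPM and Cxcl13 was at 0. Icam2, at 31.3 and 46.4 mean CPM, was the most abundant of these 10. B cell markers, of which 3 of 6 rose and 1 fell, took 0.00466% to 0.00507% and 0.00648% to 0.00656%. What part any of these cells had in the levels of the 9 genes was not tested.

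The other genes of the same pathways were counted by role in lists of 91 genes. Of these, 62 were tested, 26 (41.9%) fell and 9 (14.5%) rose, the median change was -0.15 on the log2 scale, and 12 were at 0 in all libraries. Over all tested genes, 24.6% fell, 20.8% rose and the median was 0.02. With a log2 fold change beyond 1 in either direction, 5.30% of all tested genes were lower and 1.37% higher. Of the list genes, 7 were lower and 0 higher. With T cell marker scaling 46 were lower and 0 higher, so none of the rises given for these lists was called there, and F2r (-0.60), F5 (-0.77), Pros1 (-0.70) and Serpinb8 (-0.76), which did not pass with TMM, were called lower, as was the neighbour Cul4a (-0.70).

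Most other clotting factors were hardly counted. Of 20 genes 8 were tested, their median was -0.01 on the log2 scale, and the fibrinogen genes Fga, Fgb and Fgg, F11, F13b, Kng1 and Kng2 were at 0 in all libraries. The most abundant were Lman1 and Mcfd2, which together carry clotting factors out of the endoplasmic reticulum. Lman1 was at -0.05 (standard error 0.05) and did not pass. Mcfd2 was at 0.15 (standard error 0.05) and passed, but not with DESeq2, nor without control replicate 2 (0.14) or control replicate 3 (0.14). Vwf, the von Willebrand factor of platelets and endothelium, fell from 44.2 ± 0.668 to 27.4 ± 2.20 CPM (SD, n = 3 each), with a log2 fold change of -0.69 (standard error 0.07). F5, the cofactor of activated F10, was at -0.19 (standard error 0.11) and did not pass.

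Among coagulation inhibitors, 5 of 10 were tested. Procr, the receptor of protein C, fell from 24.4 ± 0.280 to 7.82 ± 0.046 CPM (SD, n = 3 each), a log2 fold change of -1.64 (standard error 0.10, adjusted p = 1.10e-12 from edgeR), which is close to that of F10. Tfpi, the inhibitor of the F7 and F3 complex, was at 0.06 (standard error 0.15), and Pros1, the cofactor of protein C, at -0.12 (standard error 0.12), and neither passed. Without single samples Pros1 ranged from -0.18 to -0.02 (without control replicate 2). Serpinc1, the antithrombin gene, was at 0.57 (standard error 0.23) with about 3 to 4 mean CPM and passed only in part of the fits. It did not pass with DESeq2 (0.57), with the replicate block (0.57), without control replicate 1 (0.40) or 2 (0.61), or without DB2313 replicate 1 (0.40) or 3 (0.57).

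All 4 protease-activated receptors, which sense thrombin and other clotting proteases at the cell surface, were tested, and 0 fell. F2rl1 rose from 14.7 ± 0.440 to 23.0 ± 0.945 CPM and F2rl3 from 4.11 ± 0.638 to 7.54 ± 0.582 CPM (SD, n = 3 each). Their log2 fold changes were 0.65 (standard error 0.09) and 0.87 (standard error 0.16). The T cell markers ranged from 0.32 to 0.74, and F2rl3 exceeded that range by less than its standard error. The platelet and megakaryocyte markers had a median of 0.69. Neither gene passed when libraries were scaled to the T cell markers, and which cells held these transcripts was not tested. F2r, the main thrombin receptor, stayed at about 54 to 55 CPM with a log2 fold change of -0.02 (standard error 0.06), which did not pass.

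In fibrinolysis, 8 of 11 other genes were tested, 4 fell and 1 rose. Lrp1, an endocytic receptor that clears urokinase bound to its inhibitors, fell by 0.92 on the log2 scale (standard error 0.05). The plasminogen-binding pair S100a10 and Anxa2 fell by 0.30 and 0.23, and the plasminogen receptor Plgrkt fell by 0.21, with standard errors of 0.03 to 0.04. Serpine2, a thrombin and urokinase inhibitor, rose by 0.51 (standard error 0.08), but was at -0.07 with T cell marker scaling. Plat, the tissue-type activator, was below 3 mean CPM in each group, at 0.21 (standard error 0.33), and did not pass, with a range of 0.03 (without control replicate 2) to 0.56 (without control replicate 3). Plg, the plasminogen gene, was at 0 in all libraries.

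Of 18 other matrix adhesion proteins 13 were tested, 6 fell and 2 rose, and the median was -0.17 on the log2 scale. Vcan, the proteoglycan versican, fell from 24.1 ± 0.413 to 11.1 ± 0.354 CPM (SD, n = 3 each), a log2 fold change of -1.11 (standard error 0.09). The most abundant, Tgfbi, a secreted protein that binds integrins and collagen, fell by 0.88 (standard error 0.03), and Spp1, osteopontin, fell by 0.89 (standard error 0.05). Emilin2, Emilin1 and Mfge8 also fell, but Mfge8 (-0.08) and Emilin1 (-0.13) did not pass with library size scaling, nor Emilin1 with upper quartile scaling (-0.16) or without DB2313 replicate 1 (-0.15). Ecm1 rose by 0.28 (standard error 0.04), but was at -0.31 with T cell marker scaling. Fbln1, at 1.41 and 2.40 mean CPM, passed with all samples but not with DESeq2 (0.77), with the replicate block (0.74), without control replicate 1 (0.81), 2 (0.75) or 3 (0.73), or without DB2313 replicate 1 (0.48).

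Receptors of fibronectin and thrombospondin were tested in 13 of 14 cases, and 8 fell and 2 rose, with a median of -0.31. Cd36, which binds Thbs1, fell from 146.2 ± 2.61 to 30.8 ± 2.77 CPM (SD, n = 3 each), a log2 fold change of -2.25 (standard error 0.05, adjusted p = 6.68e-20 from edgeR). Cd47, the other main Thbs1 receptor and broadly expressed on leukocytes, was at -0.07 (standard error 0.04) and did not pass, though it did without DB2313 replicate 3 (-0.10) and with T cell marker scaling (-0.66). The fibronectin receptor chains Itga5 and Itgb1 fell by 0.78 and 0.73, and Itgav fell by 0.31, though it did not pass with library size scaling or without control replicate 1 (-0.18). Itgb3 rose by 0.43, but was at -0.16 with T cell marker scaling. Itgam, a chain of a leukocyte integrin that binds fibrinogen, was at -1.83 (standard error 0.04) and Sdc1, the heparan sulfate proteoglycan syndecan, at -1.09 (standard error 0.09), and both fell. Calr, the most abundant of the list, and Itgb2 fell as well, and Sdc4 was at 0.17 (standard error 0.07) and passed with all samples. Sdc4 did not pass with DESeq2 (0.18), with no filter (0.18), with the replicate block (0.17), without control replicate 1 (0.19), 2 (0.16) or 3 (0.18), or without DB2313 replicate 2 (0.12).

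Crosslinking enzymes and clade B serpins completed the lists. Of 4 tested crosslinking enzymes of 7, Tgm2, the tissue transglutaminase, fell by 0.83 (standard error 0.04) and the lysyl oxidase relative Loxl3 fell too, at -1.49 (standard error 0.19). All 7 other clade B serpins were tested, and Serpinb9b (-1.85, standard error 0.14), Serpinb10, Serpinb6b and Serpinb6a fell while 0 rose. Serpinb9, the most abundant of them and an inhibitor of granzyme B, was at 0.05 (standard error 0.03) and did not pass. Serpinb6a, Serpinb6b and Serpinb9b belong to families of similar copies, so the division of reads among these copies is uncertain.

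**Figure D5:**
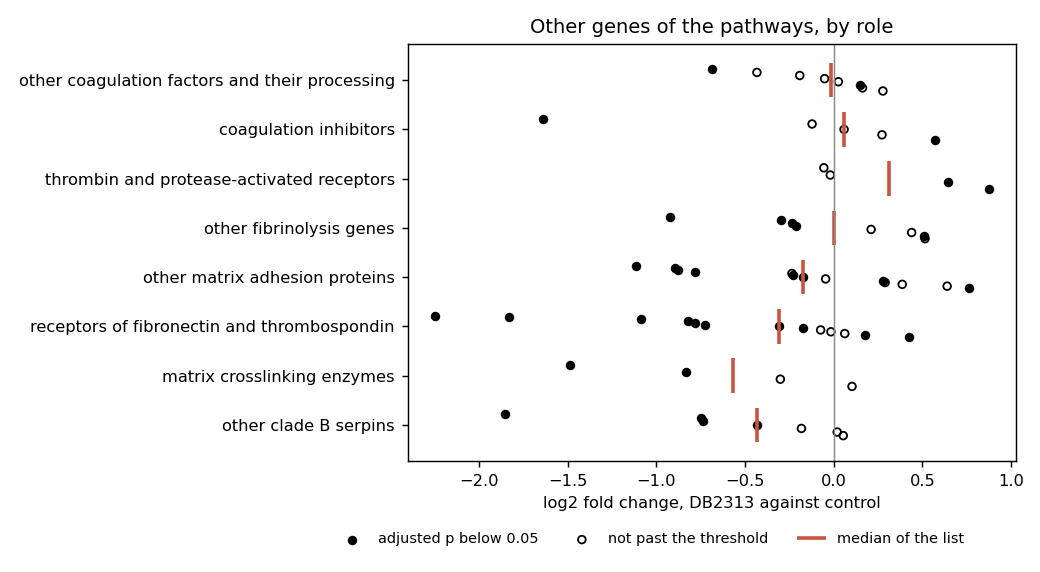
Log2 fold change between the DB2313 and control groups (x axis) of each tested gene of the 8 role lists, filled where the adjusted p was below 0.05, with a bar at the list's median. Receptors of fibronectin and thrombospondin reach from -2.25 in Cd36 to 0.43 in Itgb3, while the protease-activated receptors lie at or above -0.06.

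Genes with a profile most like each member were sought among 9530 protein-coding genes with at least 10 mean CPM in the higher group, by the root mean square difference of mean-centred log2 CPM over the 6 libraries. Thbs1 was closest to Itgam (0.029), F10 to Cd1d1 (0.020), Plaur to Tlr9 (0.031) and F7 to Fzd7 (0.049). Plau was closest to Chst14 (0.023), F13a1 to Xiap (0.023) and Serpinb2 to Cd200r4 (0.062). The 6 libraries form 2 groups, so this likeness is mainly a like size of the difference between them.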

How the data were processed

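The authors deposited raw counts per gene for 6 libraries of total RNA, without normalization. The submitters' processing notes name CASAVA 1.8, HISAT2 2.0.5 and featureCounts 1.5.0-p3, whereas the paper's methods name LifeScope for alignment and counting. Genome build, annotation and strandedness are not given in the sources used here, but the coordinates in the table matched the GRCm38 annotation of GENCODE M21 for 98.3% of 54495 common genes and for all 9 members. Without knowledge of the strand, reads in overlaps cannot be assigned.

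Samples were grouped by the description labels. Counts were filtered (filterByExpr), TMM-scaled and tested with edgeR 4.0.16 (glmQLFit, glmQLFTest) in R 4.3.3, without covariates, and adjusted over all 14883 tested genes. The standard error is the fitted change over the root of F. Ratios within libraries were tested with scipy 1.17.1. The scripts were tested on simulated counts. Standard errors include the fitted spread between samples. Floors cover counting error only, and 0 counts leave room for 3, at most 1.81e-05% of a library.

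The members and all gene lists were chosen with earlier results of these data known. Genes named are the members, list genes past both thresholds with at least 10 mean CPM in the higher group, the most abundant gene of each list, neighbours within 100 kb, and the most similar profiles. Other list genes and markers named were chosen after their values were seen. Some items are not reported here. Alternatives were DESeq2 1.42.0, library size, upper quartile and T cell marker scaling, a filter of at least 10 counts per library or none, the replicate number as a block, omission of single samples, and a fold threshold. Macrophage markers without Lyz2, and the fold threshold in each of these fits, were added after seeing the data.

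Chi-square per gene was 2.47 to 3.96 within groups, above sampling noise, and 51.3 to 56.0 between groups, so each library was kept as a sample of its own.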

Additional observations from a re-analysis of the deposited data

How the results depend on the processing

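The number of members that fell was 7 under each alternative that kept the threshold on the adjusted p, except that it was 8, with F13a1 at -0.87, when libraries were scaled to the T cell markers. With a log2 fold change beyond 1 required it was 5, and from 3 (without DB2313 replicate 2) to 5 in the fits that left out 1 sample. No member rose in any of these fits. That scaling moved the median of all genes to -0.56, and relative to it F13a1 stood at about its level with TMM. In the 6 fits that each left out 1 sample, Thbs1 ranged from -1.86 to -1.79, F10 from -1.69 to -1.59, Serpinb2 from -1.24 to -0.98 and F13a1 from -0.34 to -0.21.

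Over all genes, library size scaling gave 4931 higher genes and moved the median of all genes to 0.11, T cell marker scaling gave 11468 lower and 178 higher genes, and the fold threshold gave 789 and 204. The pathway lists then had 46 lower and 0 higher genes with T cell marker scaling, and 7 lower and 0 higher with the fold threshold. Their 9 higher genes became 14 with library size scaling and 5 with DESeq2, and ranged from 5 (without control replicate 2) to 10 in the fits that left out 1 sample. The cause was not tested, apart from the fold threshold, which is stricter by construction.

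Of the single genes named, several changed sign. With T cell marker scaling the log2 fold change was -0.53 in Serpinb9, -0.43 in Mcfd2, -0.56 in Proz, -0.53 in Pcid2, -0.16 in Kcnn4, -0.52 in Tfpi, -0.071 in Serpine2, -0.0081 in Serpinc1, -0.31 in Ecm1, -0.16 in Itgb3, -0.37 in Plat, -0.41 in Sdc4 and -0.031 in Trem2. F2r was at 0.075 with library size and 0.045 with upper quartile scaling, and Cd47 at 0.021 with library size scaling. In the fits that left out 1 sample, F2r ranged from -0.075 to 0.014, Proz from -0.15 (without DB2313 replicate 3) to 0.17, Pcid2 from -0.033 (without DB2313 replicate 3) to 0.12 and Tfpi from -0.069 (without control replicate 2) to 0.15.

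Without Lyz2 among the macrophage markers, a choice made after seeing the data, the log2 ratio of DB2313 to control relative to the markers changed sign in Fn1 (-0.54), F7 (-0.10), Plaur (-0.34) and Serpinb2 (-0.43). Ctsd, which fell little, was then the most abundant marker in the sum, and a sum without it was not taken.

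The replicate numbers gave no sign of pairing. Same-numbered libraries had correlations of their deviations from the group means of -0.011 to 0.0025, and unlike-numbered libraries of -0.023 to 0.028. Such values cannot settle whether the samples were paired by design. With the numbers as a replicate block, 3525 genes were lower and 2912 higher, and 7 members fell. The ratios between members kept their direction in each fit. Depth limits F3, with at most 11 counts in a library.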
